A study of Homo sapiens with 5 samples.

Results

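TFF1, TFF3, REG4, AGR2, AGR3, LYZ and PIGR encode proteins that the intestinal epithelium secretes or uses in secretion, and their levels were read as 7 rows of the 26364 gene rows in each of 5 gene count files. They were picked by name, with their values in these tumours already known, so every value of theirs is a description. Where calls across all genes are counted, theirs are given beside the share over all genes and support nothing. Of the 7, 6 passed the filter on low counts and TFF1 did not. The RNA came from tumours of HT-29, an established human colon cancer cell line, grown under the skin of female mice of the immunodeficient NOD SCID strain, whose T and B cells are missing. The mice were 5 weeks old at the start and were kept on the food for 2 weeks, per the series' design text, which elsewhere speaks of a longer experimental period. All hosts shared that strain and the same implanted line, and the groups differed in the food. There were 2 libraries from food without methionine (methionine-free replicates 1 and 2), 1 from food without tryptophan and niacin, 1 from food without methionine, tryptophan and niacin (the combined omission) and 1 from normal food. The labels do not say whether the methionine-free pair came from separate mice, so its spread may be technical, and each of the other diets rests on a single library.

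Goblet cells fill the gut surface with mucus and release small peptides along with it. Trefoil factors such as TFF1 and TFF3 are short, disulphide-knotted peptides that travel with mucins and help an injured epithelium to close. REG4 is a secreted lectin-like protein of goblet and endocrine cells, AGR2 is a disulphide isomerase of the endoplasmic reticulum that mouse goblet cells need to make the mucin MUC2, and AGR3 is its close relative. Lysozyme, encoded by LYZ, cleaves the bacterial cell wall and is made by Paneth cells and macrophages. PIGR, the polymeric immunoglobulin receptor, carries antibodies through epithelial cells and releases them into the gut lumen.

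Library totals ran from 433930 counts in the combined omission to 1088084 on normal food, so that 1 count was worth 2.30 CPM (the count scaled by the library's total) in the shallowest and 0.919 CPM in the deepest library. Intervals below are exact, at 95%, and cover counting error only. Methionine-free replicate 2 stood apart. In the quartile of genes with the shortest transcripts (median 1800 bases) its median log2 difference from normal food was 0.49, against 0.14 in replicate 1, −0.0016 in the tryptophan/niacin-free and −0.016 in the combined-omission library. In the quartile with the longest (median 7169 bases) the medians were −0.45, −0.10, −0.015 and −0.014 in the same order. The transcripts of TFF3, REG4, AGR2, AGR3 and LYZ measure 749 to 2327 bases and that of PIGR 4279 bases. The sample titles also come in 2 forms, a short one for the combined omission and normal food and a longer one for the other 3 libraries. If the forms mark a difference in handling, it cannot be told apart from diet in any comparison across them.

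The libraries carried the marks of epithelium. The 12 genes of a colon identity list, among them EPCAM, KRT20 and VIL1, were all detected. Their summed level ran from 14380 to 16224 CPM, and the largest part was the keratin KRT8, at 6532 to 7867 CPM. The intestinal transcription factors CDX1 and CDX2 lay between 3.26 and 14.7 CPM and did not pass the filter on low counts. Of 16 macrophage and monocyte markers, 11 were at 0 in all 5 libraries, including CSF1R, CD163, TYROBP and PTPRC, and the sum of the list was 55.3 to 82.7 CPM, nearly all of it CD68 and CD74. Of 8 neutrophil markers 7 were at 0 in all libraries, and of 7 B and plasma cell markers 6. The 8 airway and gastric secretory markers summed to at most 1.63 CPM, the 8 enteroendocrine markers to at most 18.4 CPM, and the 12 fibroblast and endothelial markers to at most 23.5 CPM. Immune, stromal or vascular cells of the host would be mouse cells, while the counts are per human gene, and the strain lacks B cells. These low immune, stromal and vascular values therefore cannot show which host cells were present.

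LYZ was the most abundant of the 7 genes in every library. It stood at 2649 and 3400 CPM in the methionine-free libraries, 2330 CPM in the tryptophan/niacin-free library, 2018 CPM in the combined omission and 2364 CPM on normal food. Scaled by transcript length it held rank 15 to 19 among the 9878 genes with a known length, at 1319 to 2222 CPM per kilobase. Both methionine-free libraries were the highest and the combined omission the lowest, and the whole range from lowest to highest was 1.68-fold. The macrophage markers at 0 and the low CD68 (32.3 to 56.1 CPM) were measured beside it, but they cannot show whether mouse macrophages were present. Paneth cell products did not accompany it: DEFA5, DEFA6, ITLN2 and REG3A were at 0 in all libraries, PLA2G2A was at no more than 1.81 CPM, and the list's 389.7 to 585 CPM came from MMP7 and SOX9, which other epithelial cells use too. Any human-mouse mixing of reads in the counting was not tested.

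AGR2 came next. It stood at 927 and 1207 CPM in the methionine-free libraries, 574 CPM in the tryptophan/niacin-free library, 788 CPM in the combined omission and 784 CPM on normal food. The tryptophan/niacin-free library was the lowest, with an interval (515 to 637 CPM) below those of the other 4, and the combined omission and normal food did not differ beyond counting error (ratio 1.00, 0.880 to 1.14). AGR3, which lies next to AGR2 on chromosome 7, had the same order at a lower level. It was at 45.2 and 48.6 CPM in the methionine-free libraries, 22.8 CPM in the tryptophan/niacin-free library, 43.8 CPM in the combined omission and 30.3 CPM on normal food. With 14 to 33 counts per library, the intervals of AGR3 overlapped between all of them. By summed counts of the methionine-free pair, 2 ratio intervals left out 1. The tryptophan/niacin-free library had 0.450 times (0.232 to 0.817) the AGR3 of the pair, and the pair 1.63 times (1.04 to 2.58) that of normal food. The intervals of the other comparisons between diets included 1. The counts of AGR2 were 20.5 and 24.8 times those of AGR3 in the methionine-free libraries, 25.1 times in the tryptophan/niacin-free library and 25.8 times on normal food. In the combined omission the interval of this ratio ran from 11.3 to 30.3, and the intervals of all 5 libraries overlapped.

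REG4 had the same low library as the AGR genes, and by a wider margin. It was at 226 and 267 CPM in the methionine-free libraries, 86.4 CPM in the tryptophan/niacin-free library, 228 CPM in the combined omission and 170.0 CPM on normal food. The interval in the tryptophan/niacin-free library, 64.7 to 113 CPM, lay below the next lowest one, 146 to 196 CPM on normal food. Against normal food the tryptophan/niacin-free count ratio was 0.494 (0.357 to 0.674), a log2 difference of −0.99. The combined-omission library had 2.70 times (1.92 to 3.85) the REG4 of the tryptophan/niacin-free library and 0.872 times (0.688 to 1.10) that of the methionine-free pair by summed counts.

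The trefoil peptides were rare. TFF3 stood at 41.6 and 86.9 CPM in the methionine-free libraries, 21.2 CPM in the tryptophan/niacin-free library, 41.5 CPM in the combined omission and 32.2 CPM on normal food. Methionine-free replicate 2 was the highest, with 2.27 times (1.38 to 3.85) the level of replicate 1, while the other 4 libraries had overlapping intervals. TFF1, the trefoil factor best known from the stomach, had 5 and 3 counts in the methionine-free libraries, 2 in the tryptophan/niacin-free library, 1 in the combined omission and 4 on normal food. With the floor of detection set at 3 counts, no difference in TFF1 was detectable at this depth. TFF2, which lies between TFF1 and TFF3 on chromosome 21, had no more than 2.30 CPM, and the REG4 relatives REG1A, REG1B, REG3A and REG3G were at 0 in all libraries.

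PIGR stood apart from the other 6 genes. It was at 5.42 and 11.1 CPM in the methionine-free libraries, 8.15 CPM in the tryptophan/niacin-free library, 53.0 CPM in the combined omission and 59.7 CPM on normal food. These levels rest on 3, 7.5, 5, 23 and 65 counts, and the 3 counts of methionine-free replicate 1 sit at the floor. PIGR passed the filter on low counts only through the combined-omission and normal-food libraries, so nothing is read from its calls below. The combined omission and normal food were high and did not differ beyond counting error (ratio 0.883, 0.524 to 1.44). The other 3 were low, likewise with overlapping intervals, and each of their upper limits (15.8 to 23.2 CPM) lay below both lower limits of the high libraries (33.6 and 46.1 CPM). The methionine-free pair had 6.38-fold less PIGR than normal food by summed counts (3.34 to 13.4), and the tryptophan/niacin-free library 7.54-fold less (3.07 to 24.0). The 2 libraries high in PIGR are those with the short title form, so diet and handling cannot be told apart here. In bulk RNA, fewer cells that make PIGR and less PIGR RNA per cell cannot be told apart either.

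**Figure D1:**
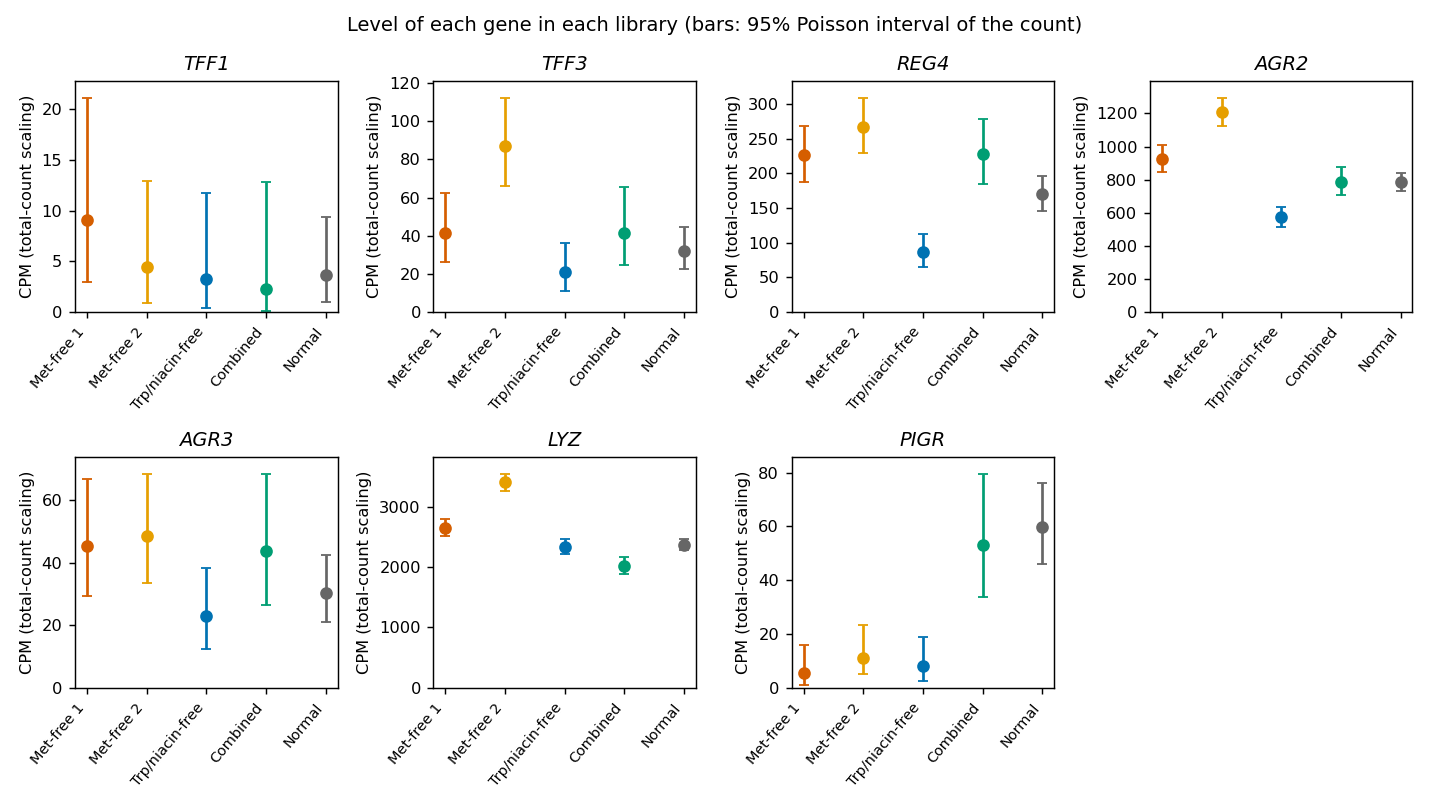
CPM of each gene (vertical axis, from 0, a scale per panel) in each of the 5 libraries (horizontal axis), with 95% Poisson intervals of the count as bars. The tryptophan/niacin-free library is lowest for TFF3, REG4, AGR2 and AGR3, whereas PIGR is at 53.0 and 59.7 CPM in the combined-omission and normal-food libraries and at no more than 11.1 CPM in the others.

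RefSeq promoter sequences (GRCh38.p14) were at hand for PIGR, REG4, AGR2 and AGR3 of the 7 genes. They are shown because REG4, AGR2 and AGR3 kept a similar order over the libraries while PIGR did not, and they give the 250 bases before each gene's start, 5′ to 3′ on the gene's own strand, the minus strand in all 4. PIGR lies at chr1:206946467-206946716, REG4 at chr1:119811461-119811710, AGR2 at chr7:16805000-16805249 and AGR3 at chr7:16881984-16882233. Capitals mark matches, on both strands, to the TATA box TATAAA, to TGTTTNC, a letter pattern of forkhead factors such as FOXA1 and FOXA2, and to ACGTG or GCGTG, the core of the elements that hypoxia-inducible factors bind.
PIGR: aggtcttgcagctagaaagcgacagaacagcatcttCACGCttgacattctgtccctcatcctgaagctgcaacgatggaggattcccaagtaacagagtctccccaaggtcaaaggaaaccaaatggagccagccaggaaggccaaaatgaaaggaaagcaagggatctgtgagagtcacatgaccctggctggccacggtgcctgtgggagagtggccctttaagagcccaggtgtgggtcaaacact
REG4: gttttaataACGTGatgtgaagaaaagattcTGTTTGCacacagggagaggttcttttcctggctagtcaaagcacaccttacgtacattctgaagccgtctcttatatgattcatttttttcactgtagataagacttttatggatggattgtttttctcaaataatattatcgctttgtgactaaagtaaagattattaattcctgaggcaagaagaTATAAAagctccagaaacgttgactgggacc
AGR2: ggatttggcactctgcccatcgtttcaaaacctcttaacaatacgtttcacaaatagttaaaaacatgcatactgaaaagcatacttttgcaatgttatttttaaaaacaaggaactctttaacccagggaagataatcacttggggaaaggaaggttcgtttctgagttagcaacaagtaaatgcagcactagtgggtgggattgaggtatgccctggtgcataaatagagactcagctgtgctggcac
AGR3: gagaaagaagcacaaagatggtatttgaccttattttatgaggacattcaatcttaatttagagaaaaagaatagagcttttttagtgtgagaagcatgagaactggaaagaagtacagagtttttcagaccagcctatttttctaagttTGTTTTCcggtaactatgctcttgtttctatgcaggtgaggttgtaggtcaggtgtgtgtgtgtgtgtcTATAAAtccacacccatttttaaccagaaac

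The REG4 and AGR3 windows each hold a TATAAA whose first base is 31 bases before the start, and each has 1 match to TGTTTNC, 219 bases before it in REG4 and 100 in AGR3. The windows of PIGR and AGR2 have neither. ACGTG occurs once in REG4, and the match in PIGR is GCGTG read on the other strand, 214 bases before the start. No 2 of these matches overlap. Among 35116 RefSeq promoters of the same length, 10.7% hold TATAAA, 15.5% hold TGTTTNC and 43.2% hold ACGTG or GCGTG. The PIGR window is richer in G and C (52.8%) than those of REG4 (35.6%), AGR3 (36.4%) and AGR2 (40.4%). These are letter matches and not binding sites.

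What leaving out methionine went with can be given over 2 libraries. On the scale of a model fitted to all genes (edgeR, log2 fold change with its standard error), PIGR was at −2.66 (SE 0.553) in the methionine-free libraries against normal food. The other 5 lay above 0, with TFF3 at 1.09 (SE 0.452), AGR3 at 0.70 (SE 0.465), REG4 at 0.60 (SE 0.435), AGR2 at 0.52 (SE 0.529) and LYZ at 0.43 (SE 0.639). Of the 6 genes 1, PIGR, was past the adjusted threshold as a lower gene and 0 as a higher one, where 0.23% of the 10005 genes tested were lower and 0% higher. PIGR was chosen with this value known and passed the filter only through libraries where it was high. Nothing is read from the call. P-values of this model measure only the spread between these samples, and only as a trend over all genes. The fit drew every gene's variance fully to that trend. An SE here therefore does not measure a gene's own spread between the replicates. The SD of log2 CPM over the pair was 0.80 for TFF3 and 0.34 for LYZ, though LYZ had the larger SE. The median log2 fold change over all genes was 0.00.

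The size of the 5 positive values moved with replicate 2 and with transcript length. As log2 CPM differences from normal food, TFF3 was at 0.34 in replicate 1 and 1.47 in replicate 2, AGR2 at 0.24 and 0.74, LYZ at 0.17 and 0.65, REG4 at 0.41 and 0.76, and AGR3 at 0.53 and 0.75. When each library's trend with transcript length was taken out, the differences of the pair became 0.48 for TFF3 (0.91 without the correction), 0.42 for REG4 (0.58), 0.22 for AGR2 (0.49), 0.12 for AGR3 (0.64) and 0.08 for LYZ (0.41). PIGR stayed at −2.37 (−2.44), and it was at −2.89 in replicate 1 and −1.99 in replicate 2.

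**Figure D2:**
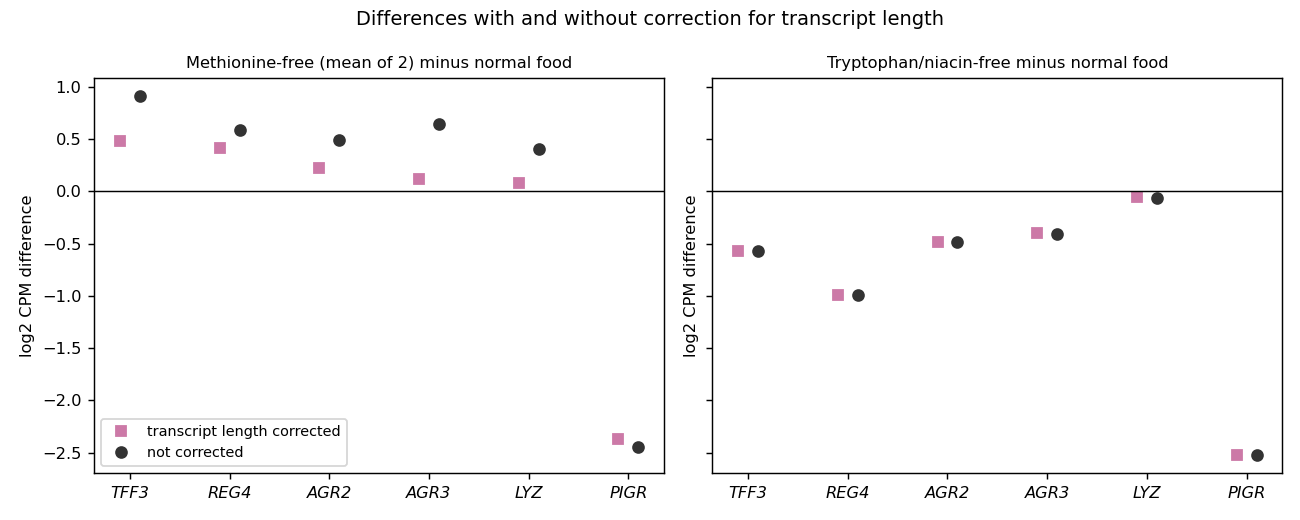
The log2 CPM difference from normal food (vertical axis) of 6 genes (horizontal axis), with correction for transcript length as squares and without it as circles, for the mean of the methionine-free pair (left) and the tryptophan/niacin-free library (right). On the left LYZ is at 0.08 with and 0.41 without the correction, while PIGR is at −2.37 and −2.44; on the right REG4 is at −0.99 and PIGR at −2.52 either way.

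The tryptophan/niacin-free library was set against normal food by size alone, since each was a single library. The rule asked for a log2 difference of at least 1 in size, with a count ratio interval that leaves out 1. TFF3 (−0.57), AGR2 (−0.49) and AGR3 (−0.40) lay below 0, with REG4 at −0.99 just short of the rule and PIGR at −2.52 past it. LYZ was at −0.06. So 1 of 6 was past the rule as lower and 0 as higher, where 2.51% of all genes were lower and 1.01% higher (3.52% in all). The filter limit on PIGR applies, and nothing is read from this count. The length correction left these differences at −0.57, −0.48, −0.39, −0.99, −2.52 and −0.06 for TFF3, AGR2, AGR3, REG4, PIGR and LYZ. For REG4 and AGR2 the count ratio interval left out 1, and for TFF3 (0.311 to 1.24) and AGR3 (0.362 to 1.41) it did not.

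In the combined omission against normal food, 0 of 6 genes were past the rule, where 2.02% of all genes were (0.95% higher and 1.07% lower). The differences were 0.48 for AGR3, 0.41 for REG4, 0.33 for TFF3, 0.00 for AGR2, −0.17 for PIGR and −0.23 for LYZ. Set against the tryptophan/niacin-free library, which differs from it by methionine, the combined omission was higher past the rule in REG4 (1.40) and PIGR (2.35), 2 of 6, where 2.3% of all genes were higher and 1.74% lower (4.04% in all). These libraries differ in title form, and the filter limit on PIGR applies here too. TFF3 (0.91), AGR3 (0.89) and AGR2 (0.49) lay above 0 too, and LYZ was at −0.17. Between the methionine-free replicates 1 of the 6, TFF3, was past the same rule as higher in replicate 2, where 2.43% of all genes were higher and 4.17% lower (6.6% in all).

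**Figure D3:**
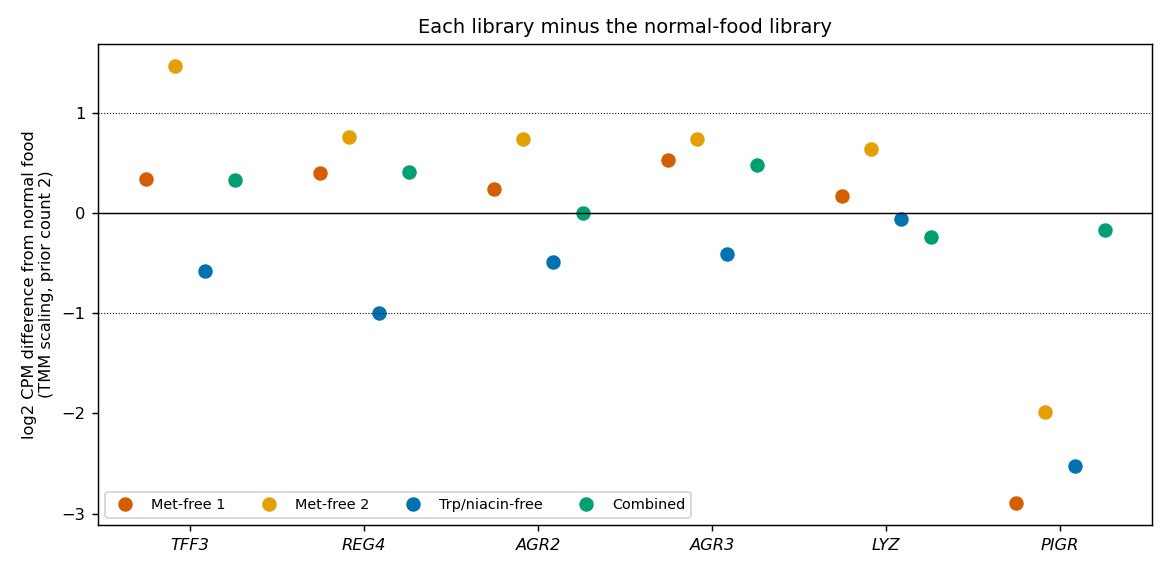
The log2 CPM difference from normal food (vertical axis) of 6 genes (horizontal axis) in each of the other 4 libraries, with dotted lines at −1 and 1. PIGR is between −2.89 and −1.99 in the methionine-free and tryptophan/niacin-free libraries and at −0.17 in the combined omission, while the tryptophan/niacin-free points of TFF3, REG4, AGR2 and AGR3 are the lowest of their genes.

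The effect of leaving out methionine was thus available with and without tryptophan and niacin in the food. For PIGR it was −2.89 and −1.99 with them and 2.35 without them, a difference between the effects of 4.79 on the log2 scale. REG4 was above 0 both ways, at 0.41 and 0.76 with them and 1.40 without. TFF3 (0.34 and 1.47, then 0.91) and AGR2 (0.24 and 0.74, then 0.49) had the value without tryptophan and niacin between the values of the replicates with them. In AGR3 it lay a little above both (0.53 and 0.75, then 0.89). These differences were not tested. The effects with and without tryptophan and niacin both cross the title forms, in opposite directions. With them, the longer form (methionine-free) was set against the short form (normal food). Without them, the short form (combined omission) was set against the longer form (tryptophan/niacin-free). A shift between the forms would thus move these effects in opposite directions and enter their difference from both sides. Whether there was such a shift was not tested.

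Set against the methionine-free pair, the tryptophan/niacin-free library had fitted log2 fold changes of −1.73 (SE 0.531) for TFF3, −1.62 (SE 0.481) for REG4, −1.14 (SE 0.538) for AGR3, −1.01 (SE 0.546) for AGR2, −0.49 (SE 0.642) for LYZ and −0.23 (SE 0.856) for PIGR. As log2 CPM differences these moved with the replicate and with the length correction. TFF3 was at −1.48 with both replicates, −0.92 without replicate 2, −2.05 without replicate 1 and −1.05 with the correction. With the correction AGR3 was at −0.51 (−1.04 without it), AGR2 at −0.71 (−0.98), LYZ at −0.14 (−0.47) and REG4 at −1.41 (−1.58). PIGR was at −0.08 with both replicates and at 0.37 without replicate 2. By edgeR's quasi-likelihood test 0 of the 10005 genes were called in that comparison, which is 0%, with 491 at an unadjusted p under 0.05 and 0 called by DESeq2 or limma-voom. The methionine-free libraries and the tryptophan/niacin-free library share the longer title form. The combined omission against the methionine-free pair, which crosses the forms, had values of 2.48 (SE 0.627) for PIGR, −0.17 (SE 0.511) for AGR3, −0.19 (SE 0.441) for REG4, −0.52 (SE 0.534) for AGR2, −0.66 (SE 0.649) for LYZ and −0.73 (SE 0.503) for TFF3, with 0 of 6 called where 0.03% of all genes were. As a log2 CPM difference TFF3 was at −0.58 there, at −0.01 without replicate 2 and at −1.14 without replicate 1, and AGR3 was at 0.41 with the length correction and −0.16 without it. PIGR was at 2.27, and at 1.82 and 2.72 without replicate 1 and without replicate 2.

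Likeness between 2 genes was measured as the root mean square difference of their log2 CPM over the 5 libraries after each gene's own mean was taken off. AGR2 and AGR3 differed by 0.19, REG4 and AGR3 by 0.22, and AGR2 and LYZ by 0.23, whereas PIGR differed from the other 5 by 1.25 to 1.40. Among 4828 other genes with a mean of at least 50 CPM, those nearest to PIGR were VEGFA (0.47), the angiogenic growth factor, HK2 (0.47), a hexokinase of glycolysis, and PLOD2 (0.52), a collagen lysyl hydroxylase. The spread of PIGR itself was 1.20 on this scale. VEGFA stood at 177 and 141 CPM in the methionine-free libraries, 152 CPM in the tryptophan/niacin-free library, 470.1 CPM in the combined omission and 679 CPM on normal food. Like PIGR, VEGFA, HK2 and PLOD2 were each highest in the libraries of the short title form. Diet and handling cannot be told apart for them, and a shared cause was not tested.

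Nearest to REG4 (spread 0.60) were the heparin-binding growth factor MDK (0.17), the cytochrome b5 gene CYB5A (0.20) and ILVBL (0.22). Those nearest to TFF3 (spread 0.67) were PEX2 (0.09), a peroxisome assembly gene, NDUFA11 (0.10), of respiratory complex I, and the interferon-induced IFITM3 (0.13). AGR3 (spread 0.42) was nearest to CYB5A (0.05), the mitochondrial ribosomal gene MRPS16 (0.10) and FCGRT (0.11), the neonatal Fc receptor, which also carries antibodies across epithelia. For AGR2 (spread 0.40) they were RNF187 (0.04), SOD1 (0.07), the cytosolic superoxide dismutase, and PPDPF (0.08). LYZ (spread 0.30) was nearest to ATP5G2 (0.03), RPS15A (0.03) and EIF6 (0.03), which serve ATP synthesis and the ribosome.

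**Figure D4:**
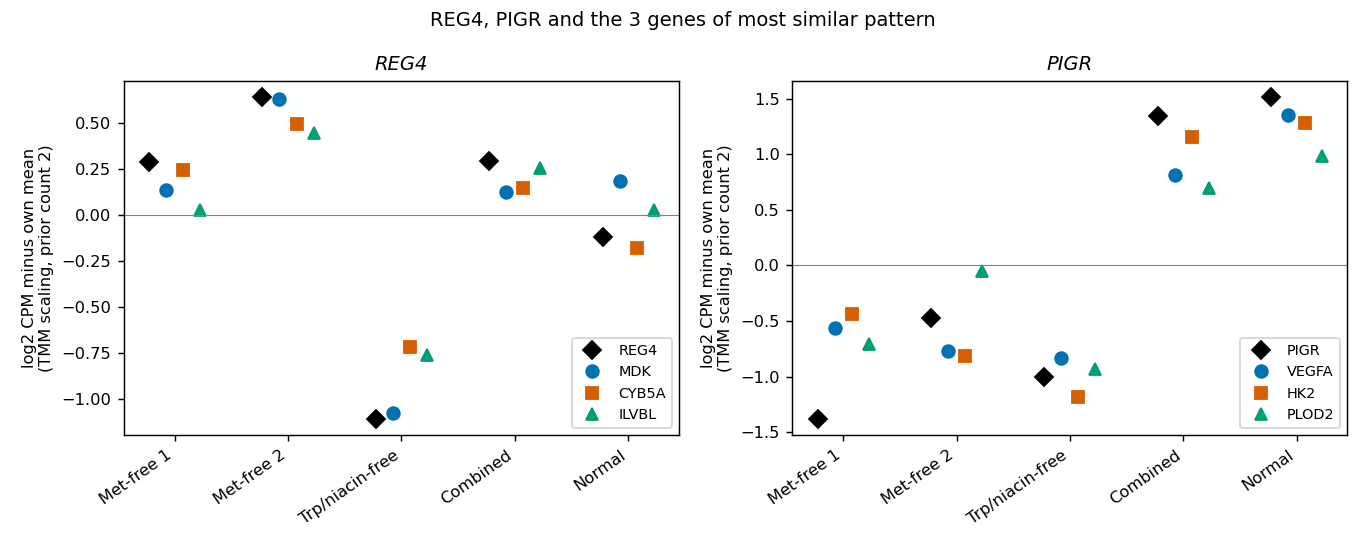
Centred log2 CPM (vertical axis) in the 5 libraries (horizontal axis) of REG4 (left) and PIGR (right), as diamonds, with the 3 genes of most similar pattern. PIGR, VEGFA, HK2 and PLOD2 lie above their own means in the combined-omission and normal-food libraries and below them in the other 3. The combined-omission and normal-food libraries share the short title form.

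The mucin MUC2 and the mucus protein FCGBP were lower in the tryptophan/niacin-free library than on normal food, but not in the combined omission. Of 18 other secreted goblet products 11 were tested. In the methionine-free libraries 1 was lower than on normal food, where 0.23% of all genes were. It was the gel-forming mucin MUC5B, with 2 counts over both against 33 (17.8-fold lower, counting interval 4.56 to 153, edgeR adjusted p = 0.0048). MUC5B passed the filter only through the libraries where it was high, and its 1 count in each methionine-free library is under the floor of 3, so nothing is read from the call. It ended with DESeq2 (−4.15), limma-voom (−3.59) and the length correction (−3.46), against −4.01, and the list's median was −0.65. MUC2, the main mucin of the colon, stood at 126 and 33.9 CPM in the methionine-free libraries, 106 CPM in the tryptophan/niacin-free library, 353 CPM in the combined omission and 241 CPM on normal food. By the size rule, MUC2, MUC5AC and FCGBP were lower in methionine-free replicate 2 than in replicate 1, 3 of 11 where 4.17% of all genes were lower. So the 2 libraries of 1 diet differed on this list too. In the tryptophan/niacin-free library 4 of 11 were lower by the size rule, where 2.51% of all genes were lower. They were MUC5B (−1.83), FCGBP (−1.27), MUC2 (−1.20) and the glycosyltransferase ST6GALNAC1 (−1.05). The list's median was −0.54 against −0.01 over all genes. The filter limit on MUC5B holds for this count too, and nothing is read from its place in it. MUC5AC, a mucin of stomach and airway, was at 0.13. In the combined omission C1GALT1C1 (1.02), the chaperone of an enzyme of mucin glycosylation, was higher than on normal food, 1 of 11 where 0.95% of all genes were higher. In the combined omission against the tryptophan/niacin-free library, FCGBP (1.96), MUC5B (2.00), MUC2 (1.74) and the adhesion molecule CEACAM5 (1.49) were higher, 4 of 11 where 2.3% of all genes were. MUC5B and CEACAM5 passed the filter only through the combined-omission and normal-food libraries, where they were high. Nothing is read from their places in this count. Against the methionine-free pair, MUC2 (2.11, edgeR adjusted p = 0.0071) and MUC5B (4.19, edgeR adjusted p = 0.045, from 15 counts against 2) were higher, 2 of 11 where 0.03% of all genes were. DESeq2 and the length correction called no gene in that comparison, and with limma-voom MUC2 was called and MUC5B was not (adjusted p = 0.108). Nothing is read from the MUC5B call against the pair either, for the filter and floor reasons given above. MUC5B, MUC2, FCGBP and CEACAM5 were each highest in the combined-omission and normal-food libraries, which share the short title form. There MUC5B stood at 34.6 and 30.3 CPM, against at most 6.52 CPM elsewhere. FCGBP stood at 505 and 310 CPM there, against at most 242 CPM elsewhere. For these genes diet and handling cannot be told apart in comparisons across the forms.

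**Figure D5:**
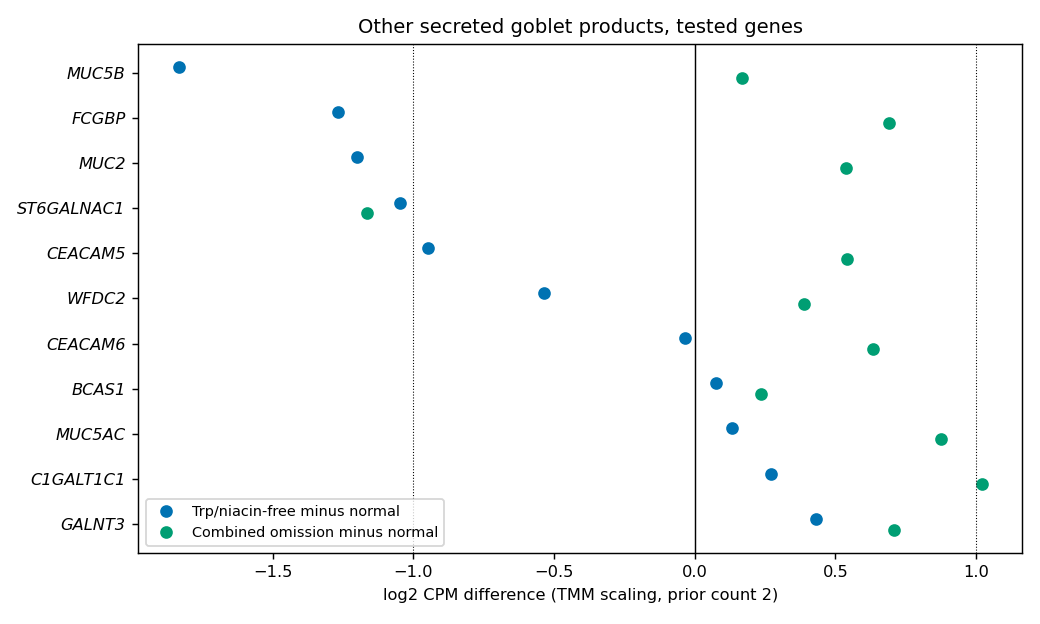
The log2 CPM difference from normal food (horizontal axis, dotted lines at −1 and 1) of the 11 tested genes among other secreted goblet products (vertical axis), in the tryptophan/niacin-free library and in the combined omission. MUC5B, FCGBP and MUC2 lie below −1 in the tryptophan/niacin-free library and between 0.17 and 0.69 in the combined omission. MUC5B passed the filter on low counts only through the combined-omission and normal-food libraries, where it was high.

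Factors that direct the secretory lineage were mixed. Of 15, 11 were tested. In the methionine-free libraries against normal food 0 were called, where 0.23% of all genes were. The largest differences were FOXA2 (−1.17), ELF3 (−0.99) and HES1 (0.49). In the tryptophan/niacin-free library 2 were lower by the size rule, the forkhead factor FOXA2 (−1.47) and the epithelial ETS factor ELF3 (−1.10), 2 of 11 where 2.51% of all genes were lower, and the median was −0.50. Against normal food 0 were past the rule in the combined omission, where 2.02% of all genes were, with FOXA3 at −0.98, SPDEF at 0.51 and ERN2 at 0.50. FOXA2, ELF3 and ERN2 were highest in the libraries of the short title form. In the combined omission and on normal food FOXA2 stood at 33.4 and 40.4 CPM, ELF3 at 355 and 485 CPM and ERN2 at 69.1 and 48.2 CPM. SPDEF, which drives goblet cell maturation, stood at 50.6 and 39.8 CPM in the methionine-free libraries, 32.6 CPM in the tryptophan/niacin-free library, 66.8 CPM in the combined omission and 46.0 CPM on normal food. It was higher by the size rule in the combined omission than in the tryptophan/niacin-free library (1.00), as was ERN2 (1.42), the stress sensor of mucus-secreting cells, 2 of 11 where 2.3% of all genes were higher. ATOH1, which commits cells to the secretory fate, had 2.95 to 12.6 CPM and was not tested.

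Among the folding machinery in which AGR2 works, HERPUD1, QSOX1 and ERO1A were lower in the tryptophan/niacin-free library than on normal food. Of 28 genes for folding and disulphide formation in the endoplasmic reticulum 27 were tested. In the methionine-free libraries 0 were called, where 0.23% of all genes were, and the median was 0.13. The largest differences were SDF2L1 (0.95), ERO1A (−0.93) and QSOX1 (−0.91). In the tryptophan/niacin-free library HERPUD1, an adaptor of protein degradation (−1.22), and the oxidases QSOX1 (−1.10) and ERO1A (−1.03) were lower by the size rule, 3 of 27 where 2.51% of all genes were, and the median was −0.08. HERPUD1, QSOX1 and ERO1A were each highest in the 2 libraries of the short title form. In the combined omission SDF2L1 (1.32), from 11 counts against 9 on normal food, was higher, 1 of 27 where 0.95% of all genes were. Against the tryptophan/niacin-free library SDF2L1 (1.37) and HERPUD1 (1.02) were higher there, 2 of 27 where 2.3% of all genes were. SDF2L1 passed the filter on low counts only through the combined-omission library, where it was high. Nothing is read from its place in either count. In the tryptophan/niacin-free library against normal food, the isomerases P4HB (−0.15) and PDIA3 (−0.08) were not past the rule. TXNDC12, the AGR relative that was expressed, stood at 84.9 and 136 CPM in the methionine-free libraries, 62.7 CPM in the tryptophan/niacin-free library, 73.7 CPM in the combined omission and 91.0 CPM on normal food.

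The tested partners of PIGR in antibody transport differed less from normal food than PIGR did in the methionine-free and tryptophan/niacin-free libraries. Of 19 genes 17 were tested, and 0 were called in the methionine-free libraries against normal food (edgeR) or past the size rule in the tryptophan/niacin-free or combined-omission library. The largest differences in the methionine-free libraries were RAB11FIP1 (−0.74), AP1M2 (0.60) and FCGRT (0.48), and in the tryptophan/niacin-free library EGFR (0.87), ADAM17 (−0.78) and RAB3D (−0.40). Those of the combined omission were EGFR (0.80), RAB5A (−0.73) and RAB11FIP5 (−0.63). Between the methionine-free replicates RAB3D was lower in replicate 2 (−1.30), 1 of 17 where 4.17% of all genes were lower. JCHAIN, the joining chain of the antibodies that PIGR binds, was at 0 in all libraries. Of 28 epithelial defence genes, many of which respond to inflammatory signals as PIGR does, 11 were tested. In the methionine-free libraries 0 were called, where 0.23% of all genes were, with CXCL8 at 1.45, S100P at 1.05 and CXCL16 at 0.76. In the tryptophan/niacin-free library the chemokine CXCL16 was higher (1.32) and the complement factor CFB lower (−1.08) by the size rule, 1 each of 11, where 1.01% of all genes were higher and 2.51% lower. Past the rule in the combined omission were 0 of 11, where 2.02% of all genes were, with LCN2 at −0.89, TNFAIP3 at 0.66 and CXCL8 at 0.62.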

How the data were processed

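The authors deposited 1 table of expected counts per gene symbol for each library, that is, estimated counts of which 15.2% to 17.6% of those above 0 carried decimals. Per the labels' protocols, the kit keeps the RNA strand. Tools named in the submitters' processing notes are featureCounts, Subread 2.0.0, SAMtools 0.1.18, Bowtie2 2.2.8 and TopHat2 2.1.1, with the build hg19. The sources used here do not give the annotation, the strand setting, the handling of multi-mapped reads or whether mouse reads were removed. Counts were rounded for tests. CPM is per total count; fitted values and log2 differences (prior count 2) use TMM factors. The edgeR 4.0.16 quasi-likelihood test (limma 3.58.1, R 4.3.3, Benjamini-Hochberg, threshold 0.05) ran on the 10005 of 26364 genes that filterByExpr kept, with 1 mean per diet over 5 libraries. Its 1 residual degree of freedom comes from the pair on methionine-free food, and lone libraries were assumed to vary like that pair. Its gene variances were drawn fully to a trend over all genes. It was tested on simulated data. DESeq2 1.42.0 and limma-voom were alternatives. Transcript length is that of the longest GENCODE transcript, matched for 98.7% of genes tested. The 7 genes, the lists and the motifs were chosen with earlier results of these data known. From each list the genes called are named, or otherwise, for the comparisons with normal food, the 3 of largest difference, with a few others picked for their role after their values were seen; neighbours are the nearest 3 by pattern. Protein sequences were not used here.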

Additional observations from a re-analysis of the deposited data

Results flagged for a closer look

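For 3 genes the methionine-free libraries lay on one side of normal food and the combined omission lay on the opposite side of the tryptophan/niacin-free library. The difference between the effects of leaving out methionine, without minus with tryptophan and niacin in the food, was 4.79 for PIGR on the log2 scale (4.34 without methionine-free replicate 1 and 5.25 without replicate 2). It was −0.58 for LYZ, whose effects were 0.17 and 0.65 with tryptophan and niacin and −0.17 without them. For TFF1 it was −0.76, from 1 to 5 counts per library. None of these differences was tested. The comparisons behind each of them cross the title forms in opposite directions, so a shift between the forms would enter from both sides.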

How the results depend on the processing

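Of 204 recomputed differences of the 7 genes, 201 moved by no more than the spread of the methionine-free pair, 3 moved further, all under the length correction, and of those at least 1 in size on the log2 scale 0 changed sign. These 3 were AGR3 in each comparison with the methionine-free pair. Leaving out a replicate cannot exceed that spread by construction. The number of genes called in the methionine-free libraries against normal food, 23, became 1 with DESeq2 and 2 with the length correction. For the combined omission against methionine-free food, 3 became 6 with total-count scaling, 9 with limma-voom and 0 with DESeq2 or the length correction. The cause was not tested. Without a methionine-free replicate no test is possible, and the size rule gave 299 to 1368, 387 to 1502 and, for the tryptophan/niacin-free library against methionine-free food (0 called), 285 to 1081 genes. Counts by the size rule between single libraries stayed within 1.5 times under every scaling, prior count and filter tried. No paired analysis was possible because only the methionine-free diet has more than 1 library. Depth limits TFF1, PIGR, TFF3 and AGR3 most.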
